A study of Bos taurus with 16 samples.

Results

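Bovine theca interna cells that received luteinising hormone (LH) alone were compared with cells that received no hormone, on every probe set of an Affymetrix bovine array that is not one of the manufacturer's controls. The comparison took the 4 arrays labelled LH and the 4 labelled control, so 8 of the 16 arrays of the study. The cells came from adult cattle ovaries collected at a slaughterhouse, and those of about 50 follicles of 4 to 6 mm were pooled for each culture. They were kept 6 days without serum. LH was given at 160 pg/ml from day 3 to day 6, which made 4 days of treatment. The control cells had the same culture with neither LH nor bone morphogenetic protein 6 (BMP6). The 2 remaining groups, of 4 arrays each, received BMP6 at 10 ng/ml without LH (BMP6) or with it (LH+BMP6), and are used here to set the LH difference beside the same difference in the presence of BMP6. The labels name no breed, genotype or transgene, and state that the experiment was repeated 4 times on cells from different ovary batches. A culture is a pool of follicles, so the p values measure the spread among 4 such pools per group.

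Theca cells form the steroid-producing layer of the follicle wall. LH from the pituitary binds a G protein-coupled receptor, LHCGR, on their surface, and raises cyclic AMP and protein kinase A activity inside the cell. Cholesterol, taken up from lipoproteins or made in the cell, is moved into mitochondria by STAR, cleaved to pregnenolone by CYP11A1, and carried on by HSD3B1 and CYP17A1 to androgens. The granulosa cells on the other side of the basement membrane turn these into oestrogen.

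Values are log2 signals, and a difference is LH minus control on the log2 scale with limma's standard error (SE), from 4 arrays per group. The SE, intervals and p values share 1 estimate of the spread over all 4 groups. For a gene that varied little in the groups with BMP6 they are thus smaller than the 8 arrays alone would give. They are larger for a gene that varied more there. A probe set was called at a limma adjusted p under 0.05 over the 24016 probe sets tested. The cells carried the markers of their label. INSL3, the peptide hormone of theca cells, lay between 13.88 and 14.29 on the 8 arrays, and LHCGR between 7.50 and 8.53. FSHR, the receptor of granulosa cells, lay between 3.26 and 3.72, under the lower quartile of the arrays, which was 4.31 to 4.43. The 9 hybridisation controls, which are added to the RNA before it meets the array, averaged 8.66 to 8.71 on 3 arrays (LH replicate 1, control replicate 1 and control replicate 3) and 9.84 to 10.17 on the 13 others. Measured from the control mean, 252 probe sets differed at least 2-fold on LH replicate 1, against 87, 7 and 17 on LH replicates 2, 3 and 4. Control replicates 1 to 4, each measured from the mean of the other 3, had 98, 35, 33 and 17 such probe sets. Only LH replicate 1 thus exceeded the highest of the control counts, whose reference mean holds fewer arrays. Since 1 of the 3 arrays of low hybridisation signal is the LH array with the most such probe sets, values without them, or without LH replicate 1, are given beside the larger differences and the lists they touch. Without the 3 arrays, LH replicates 2, 3 and 4 are set against control replicates 2 and 4 alone. That fit thus has fewer arrays to call a difference with.

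LH raised the signal of 3 probe sets, which is 0.0125% of those tested, and none was called lower. They were SCG2, the gene of secretogranin II, a protein of secretory granules, TF, the gene of the iron carrier transferrin, and 1 probe set to which the annotation gives no gene. An unadjusted p under 0.05 was reached by 771 probe sets with higher values after LH (3.21%) and by 520 with lower values (2.17%). Together these are 5.38% of the probe sets, near the rate of 0.05 that this threshold gives without any difference. The median difference over all probe sets was 0.01, and the median SE was 0.102.

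SCG2 stood at 10.53, 10.77, 10.51 and 10.91 on control replicates 1 to 4. It stood at 12.03, 11.71, 11.80 and 11.87 on the LH arrays. The lowest LH array lay above the highest control array, and the 4 LH arrays lay close together. The difference was 1.17 ± 0.14 (limma adjusted p = 0.00396), with a 95% interval of 0.88 to 1.46. It was called without each of the 8 arrays in turn, but not without the 3 arrays of low hybridisation signal (0.95, limma adjusted p = 0.673). The control arrays left in that fit, at 10.77 and 10.91, were the highest of the 4. Granins are acidic proteins of dense-core vesicles, and secretogranin II is the precursor of the peptide secretoneurin.

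TF stood at 6.54, 6.88, 6.86 and 7.12 on the control arrays. On the LH arrays it stood at 8.39, 7.74, 7.65 and 8.16. The groups did not overlap, and LH replicates 1 and 4 were the highest. The rise of 1.13 ± 0.17 (limma adjusted p = 0.0351) was lost when any of control replicates 1, 2 and 3 or LH replicates 1, 2 and 4 was left out, at limma adjusted p between 0.0671 and 0.216. Without the 3 arrays of low hybridisation signal it was 0.85 and not called. With the spread taken from the 8 arrays alone it was not called either (limma adjusted p = 0.484).

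The unnamed probe set stood at 5.53, 5.47, 5.47 and 5.74 on the control arrays and at 8.01, 7.34, 6.70 and 6.64 on the LH arrays. All LH arrays lay well above the highest control array, with LH replicates 1 and 2 above 3 and 4. The rise was 1.62 ± 0.23 (limma adjusted p = 0.025). It was lost without control replicate 1, 2 or 3 or LH replicate 2, at limma adjusted p between 0.101 and 0.152, and was 1.29 without the 3 arrays of low hybridisation signal (limma adjusted p = 0.673). With the 8 arrays alone the rise was not called (limma adjusted p = 0.484).

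**Figure D1:**
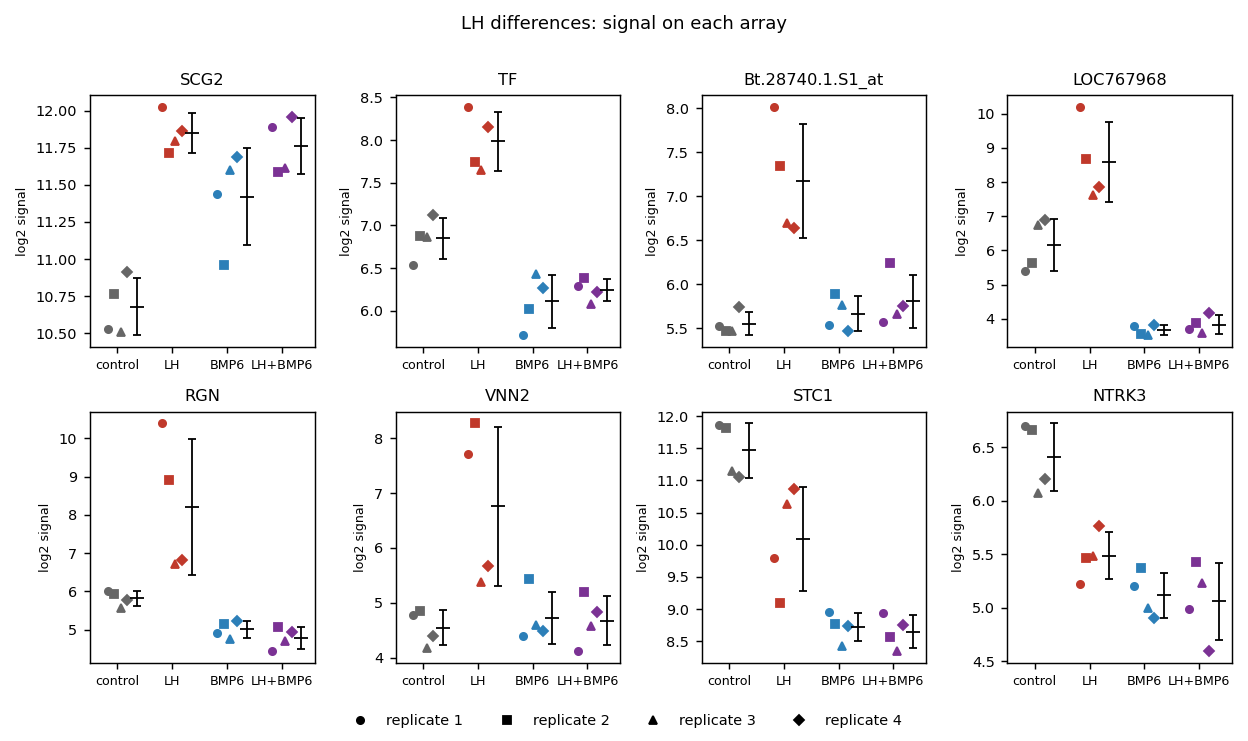
Log2 signal of 8 probe sets on each of the 16 arrays, by group, with 1 symbol per replicate number, and the mean ± SD of 4 arrays as a bar beside them. SCG2, TF and the unnamed probe set, titled by its array identifier, are the called ones. RGN, VNN2 and STC1 are those in which LH replicates 1 and 2 stand far from replicates 3 and 4. In the groups with BMP6, the arrays with and without LH overlap in all 8 panels.

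A mean difference of at least 2-fold was reached by 16 probe sets with higher values after LH (0.0666% of those tested) and 4 with lower values (0.0167%). These 20 include the 3 called ones, and stand for 14 named genes and 5 probe sets without a name. Over all probe sets, every LH array lay above every control array in 1.92% and below in 1.2%. In 14 of these 20 the LH and control arrays did not overlap. Since the size of the difference chose them, this is a description.

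The largest differences belonged to LOC767968, RGN and VNN2, and none of these was called. LOC767968, a locus whose entry in RefSeq's gene table carries the synonyms BEX1 and BEX2, stood at 5.39, 5.62, 6.74 and 6.89 in control and at 10.20, 8.69, 7.61 and 7.85 with LH (2.43 ± 0.43, limma adjusted p = 0.113). It was called when LH replicate 3 was left out (2.75, limma adjusted p = 0.0485). RGN, which encodes the calcium-binding enzyme regucalcin, stood at 6.02, 5.93, 5.57 and 5.77 against 10.40, 8.90, 6.70 and 6.83. In both genes every LH array lay above every control array, but LH replicates 1 and 2 lay much further above than 3 and 4. The RGN difference was 2.39 ± 0.54. RGN had an SD of 1.78 over the LH arrays, and of 0.20, 0.22 and 0.28 over the control, BMP6 and LH+BMP6 arrays. The tight groups with BMP6 thus lower its shared SE. The other RGN probe set, which was dimmer, differed by 0.04 ± 0.09. VNN2, a member of the vanin family of pantetheinases, stood at 4.77, 4.86, 4.18 and 4.39 in control and at 7.71, 8.28, 5.38 and 5.67 with LH (2.21 ± 0.49, limma adjusted p = 0.474). Here LH replicate 2 was the highest array and replicates 3 and 4 were again nearer to control, though above it. VNN2 was called when low hybridisation signal and the replicate number were both terms of the fit (2.48, limma adjusted p = 0.0315). Without the 3 arrays of low hybridisation signal the differences were 1.79 for LOC767968, 1.63 for RGN and 1.82 for VNN2, and none was called.

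Among the other probe sets of this size were STAR, CYP17A1, TM7SF2 and ACSS2, which are described with their pathways below, and NAP1L5, of the nucleosome assembly protein family. NAP1L5 stood at 6.52, 6.44, 6.32 and 6.49 in control and at 8.70, 7.63, 6.66 and 6.80 with LH (1.01 ± 0.29, limma adjusted p = 0.662), and differed by 0.56 without the 3 arrays of low hybridisation signal. Its dimmer probe set differed by 0.04 ± 0.12. NUDT11, a phosphohydrolase of inositol pyrophosphates, stood at 8.51, 8.08, 6.47 and 6.91 against 10.14, 9.29, 7.50 and 7.65. Its groups overlapped, and in both of them replicates 1 and 2 lay above replicates 3 and 4. Its difference of 1.15 was 0.65 without those 3 arrays.

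STC1, which encodes the glycoprotein hormone stanniocalcin, had the largest lower value of a named gene. It stood at 11.86, 11.81, 11.14 and 11.05 in control and at 9.79, 9.10, 10.63 and 10.86 with LH. Every LH array lay below every control array, with replicates 3 and 4 just below, and the difference of -1.37 ± 0.29 was not called (limma adjusted p = 0.425). It was -1.24 without the 3 arrays of low hybridisation signal. One probe set of TCN2, which encodes the cobalamin carrier transcobalamin, differed by -1.05 ± 0.20 (limma adjusted p = 0.187), at 11.05 to 11.55 in control against 9.89, 9.76, 10.74 and 10.65. The other 4 TCN2 probe sets differed by -0.09, -0.02, -0.01 and 0.05, so the probe sets of this gene disagree.

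By smallest p rather than by size, the genes with higher values after LH included CITED1, a transcriptional coactivator, ALOX12, a lipoxygenase of arachidonic acid, UPK2, a uroplakin, and FGF12, an intracellular member of the fibroblast growth factor family. CITED1 stood at 5.89, 5.82, 5.54 and 5.40 in control and at 6.80, 6.24, 6.26 and 6.74 with LH (0.84 ± 0.17, limma adjusted p = 0.365). ALOX12 stood at 4.39 to 4.54 against 4.76 to 5.14 (0.49 ± 0.10), and its dimmer probe sets differed by 0.04 ± 0.08 and 0.18 ± 0.12. UPK2 differed by 0.44 ± 0.11 and FGF12 by 0.36 ± 0.08, the latter at signals of 2.81 to 3.36. The groups did not overlap in these 4 genes, and in CITED1, unlike RGN, LH replicate 4 was nearly as high as replicate 1.

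With lower values came NTRK3, a neurotrophin receptor, which stood at 6.69, 6.66, 6.07 and 6.20 in control and at 5.23, 5.46, 5.49 and 5.76 with LH (-0.92 ± 0.18, limma adjusted p = 0.246). Every LH array lay below every control array. ARHGAP24, a GTPase-activating protein, lay at 6.91 to 7.18 against 6.07 to 6.61 (-0.65 ± 0.15), and ST3GAL5, a sialyltransferase of ganglioside synthesis, at 9.37 to 9.77 against 8.83 to 9.24 (-0.43 ± 0.10). The dimmer ARHGAP24 probe sets differed by only -0.09 ± 0.10 and -0.06 ± 0.14. ZFP36L2, which promotes decay of AU-rich messenger RNAs, differed by -0.43 ± 0.10 and KIF24, a kinesin, by -0.43 ± 0.11. ARPC1A, a subunit of an actin-nucleating complex, and ANXA1, the phospholipid-binding protein annexin, differed by -0.25 ± 0.06 and -0.24 ± 0.06. The cold-shock domain gene CSDC2 and the zinc finger gene ZNF394 differed by -0.56 ± 0.15 and -0.39 ± 0.10. None of the lower genes was called, at limma adjusted p between 0.246 and 0.622.

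The genes of steroid synthesis were then taken by their roles. Of 23 listed genes the annotation named 18, of which 0 were called, 14 had a higher and 4 a lower mean after LH, and 8 had an unadjusted p under 0.05, against 5.38% of all probe sets. The median difference was 0.20, which became 0.10 without LH replicate 1 and 0.11 without the 3 arrays of low hybridisation signal. In 4 of the 18 (STAR, SCARB1, CYP11A1 and FDX1) every LH array lay above every control array, which was so in 1.92% of all probe sets.

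Cholesterol delivery came first in the order of the pathway. STAR stood at 8.52, 8.36, 8.21 and 8.72 in control and at 11.47, 9.49, 9.34 and 9.49 with LH. LH replicates 2, 3 and 4 lay close together above control, and replicate 1 lay much higher. Its difference of 1.49 had an SE of 0.68, which the fit shares over all 4 groups, including the widely spread BMP6 groups. It was 0.98 without LH replicate 1 and 0.90 without the 3 arrays of low hybridisation signal. SCARB1, the receptor that takes up cholesterol from high-density lipoprotein, stood at 10.48, 10.65, 10.77 and 10.84 against 12.05, 11.32, 11.11 and 11.17 (0.73 ± 0.15, limma adjusted p = 0.377). The groups did not overlap, and the difference was 0.52 without LH replicate 1 and 0.46 without the 3 arrays. TSPO, a cholesterol-binding protein of the outer mitochondrial membrane, differed by -0.19 ± 0.11 with overlapping arrays.

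Among the enzymes, CYP11A1 stood at 11.17, 11.27, 11.25 and 11.32 in control and at 12.39, 11.72, 11.53 and 11.36 with LH (0.50 ± 0.16). The groups were apart by the narrow margin of LH replicate 4. CYP17A1 stood at 8.56, 7.03, 6.59 and 7.35 against 10.85, 7.55, 8.30 and 8.05 (1.31 ± 0.52, limma adjusted p = 0.898). Its groups overlapped, since control replicate 1 lay above every LH array but the first. HSD3B1 lay at 11.37 to 11.84 in control and at 12.58, 11.78, 11.64 and 11.60 with LH (0.28 ± 0.25). Without LH replicate 1, CYP17A1 differed by 0.59, CYP11A1 by 0.29 and HSD3B1 by 0.05, and without the 3 arrays of low hybridisation signal by 0.78, 0.25 and 0.04. CYP19A1, the aromatase of granulosa cells, differed by 0.26 ± 0.11 at signals of 4.37 to 5.00, CYP21A2 by 0.07 ± 0.15 and HSD17B1 by -0.25 ± 0.34.

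The electron donors of these enzymes had higher values too. FDX1, the ferredoxin that feeds electrons to CYP11A1, stood at 11.70, 11.82, 11.71 and 11.75 in control and at 12.65, 12.14, 11.89 and 11.97 with LH (0.42 ± 0.12, limma adjusted p = 0.662). All LH arrays lay above control, and the difference was 0.25 without LH replicate 1 and 0.21 without the 3 arrays of low hybridisation signal. CYB5A, the cytochrome that favours the lyase step of CYP17A1, lay at 6.99 to 7.09 in control and at 7.75, 6.99, 7.46 and 7.47 with LH (0.37 ± 0.13), with LH replicate 2 no higher than control. POR, the reductase that serves microsomal CYP enzymes, differed by 0.20 ± 0.09.

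The 6 transcription factors of the list differed by a median of 0.03. NR5A1, which drives the genes of steroid synthesis, differed by 0.20 ± 0.10, and NR0B1, its repressor, by 0.19 ± 0.20. GATA4 (0.02 ± 0.10) and GATA6 (0.04 ± 0.09) had 95% intervals of -0.20 to 0.23 and -0.14 to 0.23. NR2F2 differed by -0.12 ± 0.11 and NR5A2 by -0.01 ± 0.07, and the arrays overlapped in all 6. The dimmer NR2F2 probe sets differed by -0.46 ± 0.27 and -0.33 ± 0.24.

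**Figure D2:**
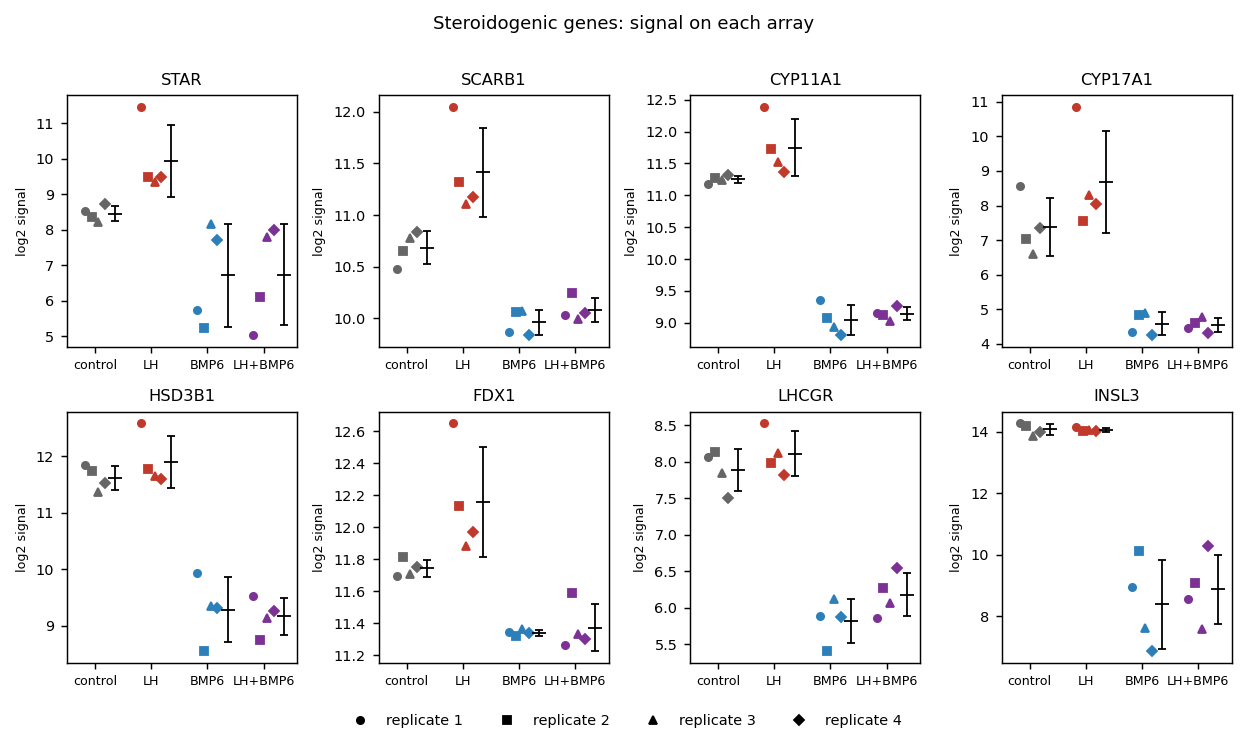
Log2 signal of 6 genes of steroid synthesis, the LH receptor gene LHCGR and INSL3 on each of the 16 arrays, with the mean ± SD of 4 arrays beside each group. LH replicate 1 is the highest LH array in all panels, and LHCGR and INSL3 overlap between control and LH.

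The genes that make cholesterol, in 6 early and 9 late steps, all had higher means after LH. Sterol synthesis is switched on by SREBF2, a membrane-bound transcription factor that SCAP escorts to its proteases and that the INSIG proteins hold back when sterols are plentiful. Of 30 listed genes of sterol synthesis, its regulators and sterol uptake, 22 were named by the annotation, and 21 of these, all but the regulator SCAP, had a higher mean after LH against 52.6% of all probe sets. None of the 22 was called, and 14 had an unadjusted p under 0.05, against 5.38% of all probe sets. In 2 of them (TM7SF2 and MSMO1) every LH array lay above every control array, against 1.92% of all probe sets. The median difference was 0.54. It was not shared evenly by the cultures. Measured from the control mean, the list's median was 1.14 on LH replicate 1, 0.69 on replicate 2, 0.12 on replicate 3 and 0.14 on replicate 4, while the 4 control arrays lay between -0.07 and 0.18. LH replicates 3 and 4 were thus inside the range of the control arrays. Without LH replicate 1 the median was 0.32, and without the 3 arrays of low hybridisation signal it was 0.30.

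The 9 late steps, from squalene to cholesterol, had a median of 0.75, and all 9 had a higher mean. TM7SF2, a sterol reductase, stood at 7.24, 7.57, 6.92 and 7.38 in control and at 10.15, 9.26, 7.71 and 7.73 with LH (1.43 ± 0.38, limma adjusted p = 0.622). LH replicates 3 and 4 were barely above the highest control array, and the difference was 0.76 without the 3 arrays of low hybridisation signal. DHCR7, which makes cholesterol in the last step of one branch, stood at 8.82, 9.20, 8.93 and 8.77 against 10.83, 9.91, 9.24 and 9.16 (0.86 ± 0.28), and LH replicate 4 was below control replicate 2. NSDHL, a sterol dehydrogenase, differed by 0.83 ± 0.28, CYP51A1, the lanosterol demethylase, by 0.76 ± 0.28, and FDFT1, squalene synthase, by 0.75 ± 0.25. SQLE, which oxidises squalene, differed by 0.61 ± 0.29, MSMO1, the methylsterol oxidase, by 0.58 ± 0.20, EBP, a sterol isomerase, by 0.47 ± 0.19, and LSS, which closes the sterol rings, by 0.45 ± 0.20. On LH replicate 1 the median of these 9 genes was 1.69, on replicate 2 it was 0.95, and on replicates 3 and 4 it was 0.24 and 0.23.

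The 6 early steps, from acetyl-CoA to isoprenoids, had a median of 0.56. HMGCS1, which makes hydroxymethylglutaryl-CoA, stood at 11.63, 12.08, 11.89 and 11.64 in control and at 13.26, 12.86, 11.97 and 12.07 with LH (0.73 ± 0.28), and LH replicates 3 and 4 were no higher than control replicate 2. FDPS, farnesyl diphosphate synthase, differed by 0.72 ± 0.27, ACAT2, which condenses acetyl-CoA, by 0.61 ± 0.17, and the decarboxylase MVD by 0.51 ± 0.16. The mevalonate kinases MVK and PMVK differed by 0.41 ± 0.17 and 0.32 ± 0.16.

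The regulators and the carriers differed less. INSIG1 stood at 9.30, 9.67, 9.59 and 9.36 against 10.77, 10.55, 9.59 and 9.43 (0.60 ± 0.29), with LH replicates 3 and 4 inside the control range. SREBF2 differed by 0.35 ± 0.15 and INSIG2 by 0.17 ± 0.08. SCAP differed by -0.02 ± 0.11 and MBTPS1, a protease that releases SREBF2, by 0.05 ± 0.07. The lysosomal cholesterol carriers NPC1 and NPC2 differed by 0.07 ± 0.13 and 0.03 ± 0.06.

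**Figure D3:**
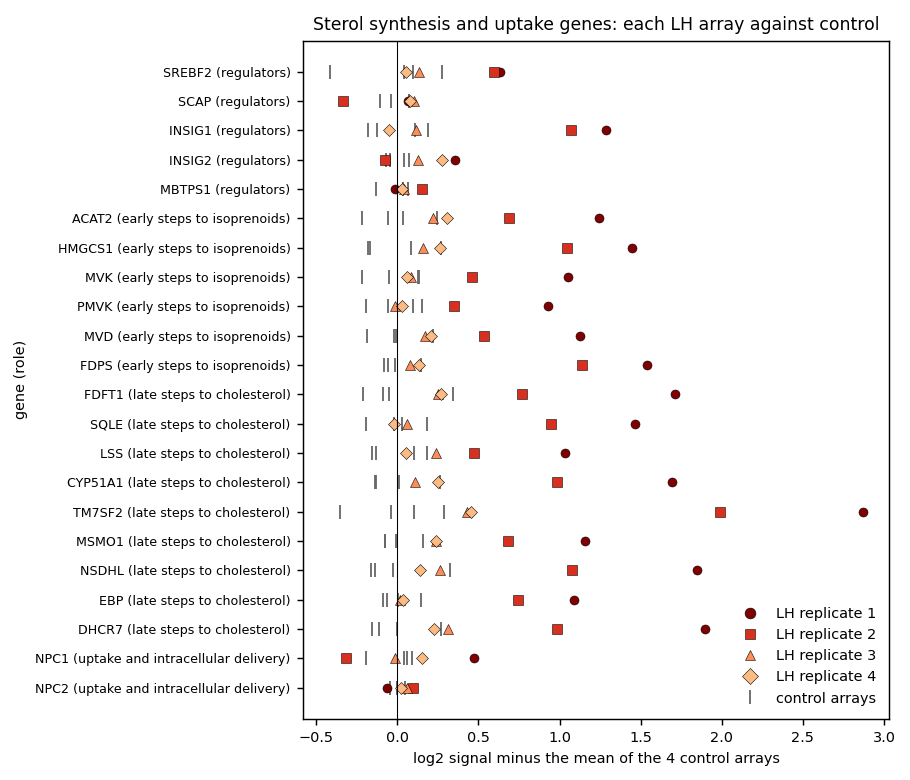
Log2 signal minus the control mean for each of the 22 sterol genes, with coloured symbols for LH replicates 1 to 4 and ticks for the 4 control arrays. In most genes LH replicates 1 and 2 lie to the right of the control ticks and replicates 3 and 4 lie among or beside them.

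Genes of fatty acid synthesis, several of which share SREBF control with the sterol genes, showed the same order of the cultures. Of 12 named members 11 had a higher mean and 0 were called. In 3 (ACLY, SCD and FADS2) every LH array lay above every control array, against 1.92% of all probe sets. The median was 0.28 over the 4 LH arrays, 0.16 without LH replicate 1 and 0.10 without the 3 arrays of low hybridisation signal. Array by array it was 0.65, 0.38, 0.09 and 0.11 on LH replicates 1 to 4. ACSS2, which makes acetyl-CoA from acetate, stood at 8.64, 9.20, 8.69 and 8.65 in control and at 10.87, 9.98, 9.22 and 9.18 with LH (1.02 ± 0.28, limma adjusted p = 0.622). SCD, the stearoyl-CoA desaturase, stood at 10.07, 10.37, 10.00 and 10.14 against 12.01, 11.54, 10.40 and 10.55 (0.98 ± 0.30), and ACLY, which splits citrate to acetyl-CoA, differed by 0.71 ± 0.21. SREBF1 itself differed by 0.06 ± 0.13.

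Genes that store, free or export cholesterol did not follow. Of 9 named members 5 had a higher and 4 a lower mean, 0 were called, and the arrays overlapped in all of them. LIPE, the hormone-sensitive lipase, differed by 0.27 ± 0.12, SOAT1, which esterifies cholesterol, by 0.18 ± 0.11, and the lysosomal lipase LIPA by -0.26 ± 0.15.

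Receptors, signalling genes and early targets of LH showed no called member. LHCGR stood at 8.06, 8.13, 7.85 and 7.50 in control and at 8.53, 7.98, 8.12 and 7.81 with LH (0.23 ± 0.19), so the arrays overlapped. INHA, the inhibin alpha subunit, lay at 10.03 to 11.28 against 9.63 to 10.61 (-0.45 ± 0.24). INSL3 differed by -0.01 with a 95% interval of -1.16 to 1.15, at signals near the top of the arrays, where 0 to 4 probe sets were brighter. Its LH and control arrays lay close together, and the width of the interval comes from the spread shared with the groups with BMP6. On the arrays of those groups 1142 to 9606 probe sets were brighter than INSL3. Of the 15 named hormone and receptor genes, IGF1R alone had LH arrays that all lay above control (0.26 ± 0.11). PTGFR, the receptor of prostaglandin F, differed by 0.55 ± 0.22 and PRLR, the prolactin receptor, by -0.54 ± 0.22. The dimmer PTGFR probe sets differed by 0.04 ± 0.12 and 0.05 ± 0.10.

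The machinery between receptor and nucleus (G proteins, arrestins, adenylyl cyclases, phosphodiesterases, protein kinase A subunits and CREB) had 24 named members, of which 12 had a higher and 12 a lower mean, with a median of 0.00. The differences ran from -0.26 to 0.21, and the arrays overlapped in every one. ADCY1, an adenylyl cyclase, differed by 0.21 ± 0.09, PRKAR1A, a regulatory subunit of protein kinase A, by 0.12 ± 0.06 and PDE1A, a phosphodiesterase, by 0.15 ± 0.09. PDE1A was dim, at 3.52 to 3.95, under the lower quartile of the arrays. Of 11 genes known to respond to cyclic AMP within hours, 0 had an unadjusted p under 0.05 and the differences ran from -0.11 to 0.13. AREG, an epidermal growth factor-like ligand, differed by 0.11 ± 0.10 and JUNB, an immediate early factor, by -0.09 ± 0.13. AREG was also under the lower quartile, at 2.64 to 3.12. The arrays report the end of the 4 days of treatment, and no earlier time was measured.

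The list of ovulation and luteinisation genes had 13 named members, 12 with a higher mean and 0 called. TNFAIP6, which stabilises the hyaluronan matrix around the ovulating oocyte, stood at 7.14, 6.69, 7.85 and 7.75 in control and at 8.90, 9.63, 7.78 and 7.88 with LH (1.19 ± 0.38, limma adjusted p = 0.74). Only LH replicates 1 and 2 lay clear of control. Its other probe set differed by 1.13 ± 0.34. ADAMTS1, a matrix protease, and PGR, the progesterone receptor, differed by 0.31 ± 0.18 and 0.13 ± 0.11, with overlapping arrays. PGR was dim, at 3.87 to 4.45.

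The families of the called genes were examined beside them. Of 10 named granins and peptide-processing genes, SCG2 was the only one called, and the median of the list was 0.09. CHGA, another granin, stood at 11.37 to 11.48 in control and 11.40 to 11.72 with LH (0.11 ± 0.08). CHGB and SCG3 were dim, at 3.02 to 3.35 and 3.41 to 3.59. FURIN, a proprotein convertase, lay at 6.88 to 7.02 against 7.05 to 7.22 (0.15 ± 0.08) without overlap, and PAM, which amidates peptides, differed by -0.19 ± 0.12.

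Of 11 named iron genes TF was the only one called. STEAP3, which reduces iron released from transferrin, was the one member whose LH arrays all lay below control, as 1.2% of all probe sets did. It stood at 7.20 to 7.27 in control and at 6.43 to 7.05 with LH, lowest on replicate 1 (-0.39 ± 0.12, limma adjusted p = 0.677). The transferrin receptor TFRC differed by 0.12 ± 0.13, and the ferritin genes FTH1 and FTL by 0.01 ± 0.05 and 0.04 ± 0.08. HMOX1, which frees iron from haem, differed by 0.17 ± 0.09.

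Of 13 named insulin and insulin-like growth factor (IGF) genes 8 had a higher mean, and none was called. PAPPA, the protease that frees IGF from its binding proteins and is inhibited by stanniocalcins, differed by 0.24 ± 0.11 with overlapping arrays. IGF1 and IGF2 differed by 0.11 ± 0.09 and 0.04 ± 0.17. The binding protein genes IGFBP4 and IGFBP6 differed by -0.27 ± 0.14 and -0.41 ± 0.21.

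Genes of glycolysis and the hypoxia response had a higher mean in 17 of 21, with a median of 0.17 and 0 called. The control arrays themselves spread widely in these genes. LDHA, lactate dehydrogenase, stood at 10.30, 10.75, 11.48 and 11.19 in control and at 11.12, 11.49, 11.30 and 11.40 with LH (0.40 ± 0.23), and BNIP3, a mitophagy receptor, at 9.03, 9.28, 9.96 and 9.90 against 10.14, 10.06, 9.94 and 9.99 (0.49 ± 0.26). In both genes control replicates 1 and 2 were low and the other 6 arrays lay close together. The dimmer LDHA probe sets differed by 0.02 ± 0.09 and -0.12 ± 0.12, so the probe sets of LDHA disagree. Those of BNIP3 differed by 0.20 ± 0.12 and 0.39 ± 0.27. ALDOC, an aldolase, differed by 0.40 ± 0.14.

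Cell cycle genes had a lower mean in 28 of 30 named members, with a median of -0.21, and 0 were called or had an unadjusted p under 0.05. The list's median from the control mean was -0.77 on LH replicate 1 and between -0.06 and -0.02 on the other LH arrays. On the control arrays it was -0.46, 0.29, 0.25 and -0.15. Replicate 1 was thus the lowest array of both groups, and without LH replicate 1 the median difference was -0.03. CCNB1, the mitotic cyclin B, stood at 6.57, 7.67, 7.65 and 7.05 in control and at 5.85, 7.10, 7.12 and 7.04 with LH (-0.46 ± 0.27). KIF20A, a kinesin of cell division, and TK1, thymidine kinase, differed by -0.44 ± 0.26 and -0.36 ± 0.18.

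Interferon-stimulated genes had a lower mean in 11 of 13, with a median of -0.17 and 0 called. Control replicate 1 was high in these genes, with a median of 0.56 from the control mean against -0.20 to -0.14 on the other controls. MX2, an antiviral GTPase, stood at 9.76, 8.77, 8.90 and 9.02 in control and at 8.51, 9.06, 8.69 and 8.51 with LH (-0.42 ± 0.23). IFI6 and OAS1X, further interferon targets, differed by -0.31 ± 0.16 and -0.24 ± 0.16.

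**Figure D4:**
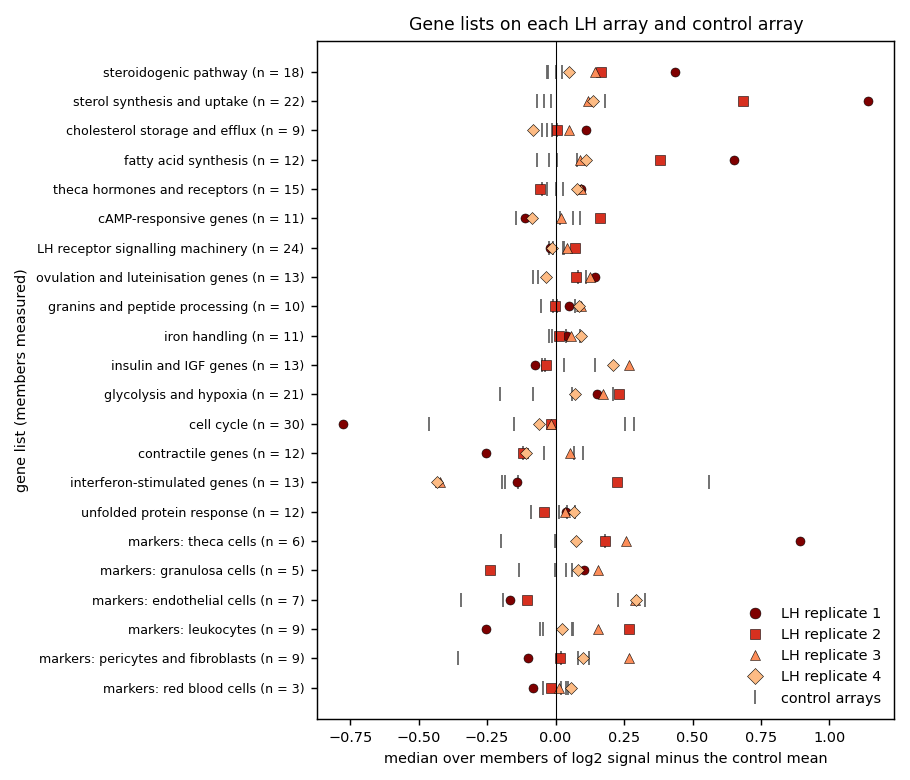
Median over the named members of each gene list of log2 signal minus the control mean, with symbols for LH replicates 1 to 4 and ticks for the control arrays. LH replicate 1 is the furthest from control in the sterol, fatty acid, steroid and cell cycle lists, and LH replicates 3 and 4 lie close to the control ticks in these.

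The cells of each culture were a mixture, and a change in the share of a cell type cannot be told apart from a change in RNA per cell in such samples. On LH replicate 1, the array with the largest sterol and steroid values, 4 of the 9 named leukocyte markers (PTPRC, CD3E, CD3G and CD48) had their lowest value of the 8 arrays, and the 5 others did not. That array also had 252 probe sets at least 2-fold from the control mean. The share of all probe sets that were lowest on this array was not counted, so the 4 have no baseline. PTPRC, the common leukocyte antigen, stood at 6.89 there and at 8.08 to 8.57 on the other 7 arrays. The T cell genes CD3E and CD3G stood at 6.72 and 5.84 there, against 7.56 to 7.94 and 6.78 to 7.37 elsewhere. The monocyte gene CD14 stood at 6.09 on LH replicate 1, beside a control mean of 6.04. The summed signal of the 9 named leukocyte markers was 9.78 in log2 on LH replicate 1, 10.46 to 10.70 on the other LH arrays and 10.37 to 10.47 in control. Over the 4 LH arrays 3 of the 9 had a higher and 6 a lower mean, with 0 called. PTPRC differed by -0.26 ± 0.26, and its dimmer probe sets by 0.19 ± 0.26 and -0.03 ± 0.15.

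Markers of pericytes and fibroblasts (9 named, 5 higher) had summed signals of 14.87 to 15.33 in control and 14.87 to 15.41 with LH, lowest on replicate 1 of both groups. Endothelial markers (7 named, 6 higher) had summed signals of 8.99 to 9.84 in control and 9.30 to 9.96 with LH. In both groups replicates 3 and 4 had the higher endothelial values, as CDH5, the cadherin of these cells, shows at 7.25, 7.73, 8.17 and 8.20 in control and 7.65, 7.74, 8.20 and 8.46 with LH. Granulosa markers (5 named, 2 higher) lay at 6.63 to 6.82 against 6.57 to 6.97, and red blood cell markers (3 named, 1 higher) at 5.81 to 5.93 against 5.79 to 5.86. The 6 theca markers, which share STAR, CYP11A1, CYP17A1 and NR5A1 with the steroid list, lay at 14.19 to 14.56 against 14.37 to 14.87. None of these markers was called, and their part in the differences above was not tested.

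The LH difference was last set beside the same difference in cells that also received BMP6, from 8 other arrays. LH+BMP6 against BMP6 gave 0 called probe sets, 471 with an unadjusted p under 0.05 (1.96%), and 0 with a mean difference of at least 2-fold, against 20 without BMP6. All 4 LH+BMP6 arrays lay above all 4 BMP6 arrays in 222 probe sets (0.924%) and below in 180 (0.75%), where LH against control had 460 (1.92%) and 289 (1.2%). Among the 20 probe sets of at least 2-fold, the largest difference with BMP6 was 0.38 in size. Some of these were dim in both groups with BMP6, as given below. The interaction, which tests whether the LH difference differs with BMP6, gave 0 called probe sets and 773 with an unadjusted p under 0.05 (3.22%), with a smallest limma adjusted p of 0.9995.

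SCG2 stood at 11.44, 10.96, 11.60 and 11.69 with BMP6 and at 11.89, 11.59, 11.62 and 11.96 with LH+BMP6. The arrays overlapped, and the difference was 0.34 ± 0.14. The interaction, the LH difference with BMP6 minus that without it, was -0.83 with a 95% interval of -1.24 to -0.42. TF stood at 5.72, 6.02, 6.43 and 6.27 with BMP6 and at 6.29, 6.39, 6.07 and 6.22 with LH+BMP6 (0.13 ± 0.17, 95% interval of the interaction -1.51 to -0.49). The unnamed called probe set differed by 0.14 ± 0.23 in these cells (interaction -1.48, 95% interval -2.17 to -0.79). These probe sets were chosen for their difference without BMP6, so the intervals of the interaction are descriptions, and no interaction was called.

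STAR differed by 0.02 ± 0.68 and CYP17A1 by -0.04 ± 0.52 in the presence of BMP6, SCARB1 by 0.12 ± 0.15 and FDX1 by 0.03 ± 0.12. The median of the 18 steroid genes was 0.04, with 13 of them higher and none with all LH+BMP6 arrays above BMP6. The 22 sterol genes had a median of 0.08 and 18 higher, again with none of this kind, and LSS had the largest difference (0.36 ± 0.20). LOC767968 differed by 0.16 ± 0.43, RGN by -0.22 ± 0.54, VNN2 by -0.05 ± 0.49, STC1 by -0.07 ± 0.29 and NTRK3 by -0.06 ± 0.18. Over both groups with BMP6, LOC767968 lay at 3.53 to 4.19, under the lower quartile of the arrays. CYP17A1 lay at 4.26 to 4.89 there, and VNN2 at 4.12 to 5.44, near its control values. Whether such low signals hide an LH difference was not tested. STEAP3, with lower values after LH alone, differed by 0.22 ± 0.12 with BMP6, and its interaction was 0.61 (95% interval 0.26 to 0.96). STEAP3 too was named for its difference without BMP6, so this interval is a description, and its interaction was not called. For STAR the interval of the interaction was -3.50 to 0.56, from a fit without a replicate block. STAR stood at 5.73, 5.24, 8.18 and 7.72 with BMP6 and at 5.03, 6.10, 7.81 and 8.01 with LH+BMP6. Replicates 1 and 2 thus lay below 3 and 4 in both groups, and the fit counts this spread as error. It does not settle whether the LH difference of STAR depends on BMP6. With no interaction called, the fit does not settle it for the other genes of this paragraph either.

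**Figure D5:**
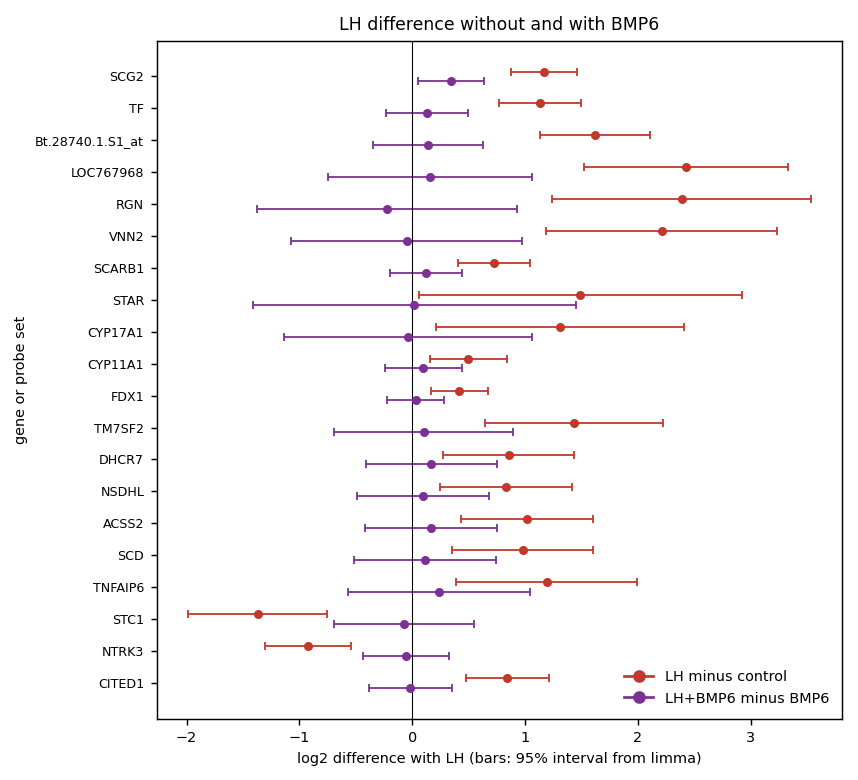
Log2 difference with LH for 20 probe sets, in cells without BMP6 (LH minus control) and with it (LH+BMP6 minus BMP6). Points are limma estimates from 4 arrays per group and bars their 95% intervals. With BMP6 the interval includes 0 in all but SCG2.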

How the data were processed

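RNA of 16 cultures of bovine theca cells was hybridised to 16 Affymetrix arrays. The authors made the deposited log2 signals with RMA in Affymetrix Expression Console, per the submitters' processing notes, and no version is given in the sources used here. RMA shares its background and quantile steps over all arrays, so a shift of all genes in 1 group would be removed. The log2 values were used as deposited, with 0 sample columns unused. Of 24128 probe sets, 112 controls were left out and 24016 were tested. GEO's platform annotation gave 1 gene symbol to 13292 of these, several to 86 and none to 10638. Entrez identifiers of 13263 matched RefSeq's gene table, which changed 0 symbols. A gene is represented by its probe set of highest mean over the 16 arrays. Its dimmer probe sets are given for some genes only, and did not always share the direction or size of the difference. No background level was estimated.

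The main test was limma 3.58.1 in R 4.3.3: lmFit with 1 coefficient per group over the 16 arrays, eBayes with an intensity trend, and Benjamini-Hochberg adjustment over the 24016 probe sets, all two-sided. The contrasts were LH minus control, LH+BMP6 minus BMP6, and their difference, the interaction. The script was tested on simulated data. Samples were grouped by their titles. Lists were described by counts and medians, with no test. The comparison, its members and the gene lists were chosen with earlier results of these data known. Named are called probe sets, the 10 genes of smallest p in each direction whose sign was the same at all 4 replicate numbers, all steroid and sterol genes, up to 3 genes of each other list and a fixed set of theca genes. The other genes of at least 2-fold, those given as further list members, and the values of unnamed and second probe sets were chosen after their values were seen. The 24 alternatives (20 planned, 4 added after the data were seen) are a replicate block (statmod 1.5.0 for its random form), other eBayes settings, dim probe sets left out, the 8 arrays alone, renewed quantile normalization, each replicate left out, the mean of a gene's probe sets, and settings for the 3 arrays of low hybridisation signal. Python 3.11.15 with numpy 2.4.6, pandas 2.3.3 and matplotlib 3.10.9 served for tables and figures.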

Additional observations from a re-analysis of the deposited data

Results flagged for a closer look

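In 200 groups of 4 arrays (control and LH for each of 100 named probe sets), 1 array stood far from the other 3 in 7, where chance gives about 1 in 20 groups. The measure is the gap to the nearest array divided by the whole range of the group. On LH replicate 1, STAR was high (11.47, a gap of 0.928 of the range), and CCNB1 was low (5.85, 0.937). On control replicate 1, ZFP36L2 was high (11.44, 0.834), MBTPS1 was low (9.41, 0.83) and FURIN was low (6.88, 0.907). On LH replicate 2, SCAP was low (6.44, 0.907), and on control replicate 2, ACSS2 was high (9.20, 0.905).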

How the results depend on the processing

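LH against control gave 3 called probe sets, and between 1 and 6 when 1 array was left out (1 without control replicate 1, 2 or 3 or LH replicate 2, and 6 without LH replicate 3). Leaving out 1 replicate number of all groups, with the replicate block, gave 2, 6, 1 and 1. With the 8 arrays alone it gave 1, without the 3 arrays of low hybridisation signal 0 by limma (688 with an unadjusted p under 0.05), and with only these 3 of the LH and control arrays 100 (70 higher, 30 lower). That fit kept the 8 arrays with BMP6 and set 1 LH array, assumed to vary like the other groups, against 2 controls, so its values describe that array, the one with 252 probe sets at least 2-fold from control. In it the interaction gave 36 called probe sets (10 higher, 26 lower) against 0, and the sterol median was 1.18 against 0.54. The cause was not tested.

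The labels do not say that equal replicate numbers share an ovary batch. The main fit has no replicate block, so any spread that equal numbers share stays in its SE and intervals. The check that follows was made for LH and control arrays only, not for the groups with BMP6. Deviations of same-numbered LH and control arrays from their group means correlated across probe sets at 0.32, 0.02, 0.14 and 0.15. For different numbers the mean was -0.05. Deviations sum to 0 within a group, so this mean is tied to the same-numbered values and is no independent baseline. Of 4 LH arrays, 2 correlated best with their own number. With the replicate block 2 probe sets were called, and TF had a limma adjusted p of 0.0751.

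Of 100 named probe sets 84 kept their direction under all alternatives run, and 16 did not, all of them uncalled. Over arrays left out singly the differences ranged from -0.55 to 0.033 for HSD17B1, -0.042 to 0.19 for CYP21A2, -0.027 to 0.10 for GATA6, -0.040 to 0.092 for GATA4, -0.036 to 0.025 for NR5A2, -0.059 to 0.21 for NPC1, -0.065 to 0.082 for SCAP, -0.47 to 0.092 for PTPRC and -0.078 to 0.060 for INSL3. With the replicate block, leaving out number 1 gave GATA6 -0.064, NR5A2 0.045, NPC1 -0.12, PGR -0.014, PTPRC 0.12 and INSL3 0.026, leaving out number 2 gave CYP21A2 -0.078, GATA4 -0.047, SCAP 0.11 and INSL3 0.035, and leaving out number 3 gave GATA4 -0.0013. The mean of its probe sets gave SCAP 0.021. With low hybridisation signal as a term, GATA4 was -0.0030 and INSL3 0.0058, and with the block added -0.019 and 0.085. Without the 3 low arrays NR0B1 was -0.052, GATA6 -0.060, NR5A2 0.026, NPC1 -0.14, JUNB 0.014, PGR -0.025 and PTPRC 0.077. Within them GATA4 was -0.24, NPC2 -0.064, SCAP 0.045, AREG -0.034, PPARGC1A -0.0059, PDE1A -0.029 and INSL3 0.094. The filter on dim probe sets left 18 of the named genes without a value.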

Other observations

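Contractile genes and genes of the unfolded protein response, which were listed as further cell states, had no called member after LH. Of 12 contractile genes 11 had a lower mean, with a median of -0.10, and MYH11, the smooth muscle myosin heavy chain, differed by -0.23 ± 0.33. Of 12 genes of the unfolded protein response 7 had a higher mean, with a median of 0.05, and HSPA5, its main chaperone, differed by -0.05 ± 0.07.

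Several genes separated replicates 1 and 2 from replicates 3 and 4 in both groups. HSD17B1 stood at 5.45, 5.70, 7.19 and 6.98 in control and at 5.58, 5.58, 6.61 and 6.54 with LH. RGS5, a pericyte marker, stood at 5.63, 5.64, 6.63 and 6.56 in control and at 6.21, 5.55, 6.45 and 6.42 with LH. These were picked after their values were seen.

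An unnamed probe set with a mean difference of 1.18 ± 0.78 stood at 11.53 on LH replicate 2 and at 5.99 to 7.21 on the 7 other arrays of this comparison. Another unnamed probe set had the lowest difference of all probe sets, at 8.24 to 8.92 in control and 6.79, 6.22, 7.59 and 7.65 with LH (-1.49 ± 0.26, limma adjusted p = 0.113).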
